A study of Mus musculus with 9 samples.

Results

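Transcripts of 7 inhibitory receptor genes of T cells, Pdcd1, Lag3, Havcr2, Tigit, Ctla4, Cd200 and Cd200r1, were examined in colonic CD4+ T cells with and without CD160. They were chosen by symbol, 7 of the 23415 gene rows of the deposited table, and all 7 passed the filter of at least 1 TPM in at least 4 libraries. TPM is a transcript abundance corrected for transcript length and scaled to the same total in every library. Donor cells were naive CD4+ CD25- CD45RBhigh T cells, either from mice lacking CD160 (4 libraries) or from wildtype littermates (5 libraries, called controls), and every recipient was Rag1-/-, so that it had no T or B cells of its own. The transferred cells caused colitis, and 5000 CD4+ T cells per library were sorted from the colon when disease was at its height. The labels give neither the age of the mice nor the deleted part of Cd160, and do not say whether libraries came from different recipients, so the p-values cover only the spread among the libraries. A row for the red fluorescent reporter tdTomato stood at 0 in all 4 knockout libraries and at 2.52 to 8.78 TPM in the 5 controls, a difference between the groups that the labels do not name and that cannot be told apart from the loss of CD160.

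Inhibitory receptors limit T cell activation after a T cell has met its antigen, and several are induced by that activation itself. PD-1 (Pdcd1) and TIGIT carry tyrosine motifs in their tails that recruit phosphatases, CTLA-4 competes with the activating receptor CD28 for CD80 and CD86, LAG-3 binds MHC class II as CD4 does, and TIM-3 (Havcr2) binds galectin-9 and other ligands. CD200 is a surface protein of lymphocytes and other cells whose receptor, CD200R1, restrains myeloid cells and is also found on T cells. T cells that have been stimulated for a long time often carry several of them. The comparison asks whether these transcripts differ when the transferred cells lack CD160, itself a receptor that can inhibit T cells through HVEM.

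One control library stood apart. In control replicate 1, 7308 genes reached 1 TPM, against 11088 to 11711 in the other 8 libraries, and its 7 receptor genes summed to 42.7 TPM, against 436.5 to 801.0 TPM. The results on the receptor genes are therefore given with and without it, and single values of other genes without it unless stated. The targeted gene Cd160 averaged 11.6 ± 6.17 TPM among the knockout libraries and 117.8 ± 78.7 TPM among control replicates 2 to 5 (SD, n = 4 each), with 31.8 TPM in control replicate 1 and no overlap between the groups. The T cell genes Cd3d, Cd3e, Cd3g and Cd4 were at 30.99 TPM or more in all 9 libraries. The 6 B cell markers summed to 2.45 to 12.86 TPM in knockout libraries, 0.84 TPM in control replicate 1 and 1.63 to 8.07 TPM in the other controls, most of it from Cd79b, with Ms4a1 and Pax5 listed at 0 in all 9. The 10 macrophage markers summed to 2339 to 7220 TPM in knockout libraries, 462.5 TPM in control replicate 1 and 1031 to 3829 TPM in the other controls. In RNA from a sorted population, fewer cells of a type and less RNA per cell cannot be told apart.

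The receptor genes formed a largely stable order of abundance. Over the 8 libraries without control replicate 1 the means were 183.7 ± 42.7 TPM for Tigit, 115.8 ± 46.6 for Lag3, 102.5 ± 21.2 for Ctla4, 57.7 ± 16.7 for Pdcd1, 49.0 ± 18.4 for Cd200r1, 20.8 ± 6.53 for Havcr2 and 8.81 ± 4.43 for Cd200 (SD, n = 8). Tigit was the highest of the 7 in each of these 8 libraries and Cd200 the lowest. Lag3 and Ctla4 did not differ beyond their spread, with Lag3 above Ctla4 in 5 of 8 libraries. Pdcd1 and Cd200r1 did not either, with Pdcd1 above in 4 of 8, of which 3 were knockout libraries. The remaining neighbours in the order held it in 8 of 8. Tigit lay above 91.5% to 95.4% of the tested genes in these libraries and Cd200 above 20.5% to 56.0%. In control replicate 1 the order was different, with Ctla4 first at 15.5 TPM, Tigit at 13.0 and Cd200r1 last at 1.16.

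**Figure D1:**
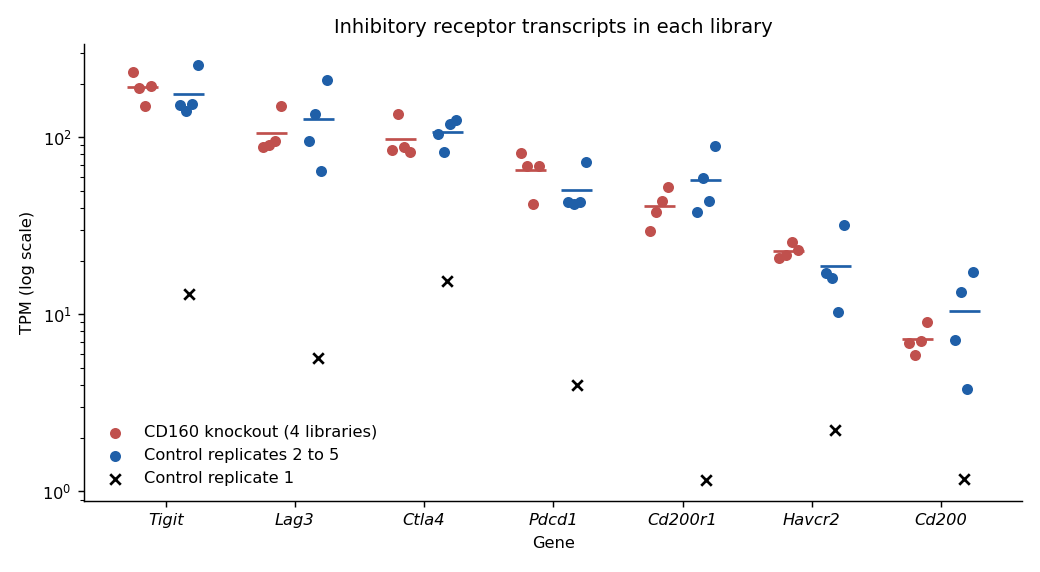
TPM of each inhibitory receptor gene in each of the 9 libraries, on a log axis, with horizontal bars for the mean of the 4 knockout libraries and of control replicates 2 to 5, and a cross for control replicate 1. The 2 groups overlap for every gene, and the cross lies below all other points of its gene.

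Of the 7 receptor genes, 0 passed an adjusted p of 0.05 in limma with all 9 libraries, where 0.0174% of 11495 tested genes did, and 0 passed without control replicate 1, where 0.0262% of 11457 did. An unadjusted p under 0.05 was also reached by 0 of the 7 in both fits, against 6.39% and 12.8% of all tested genes. In the exact permutation test over libraries, 0 of the 7 had an unadjusted p under 0.05, with 7.36% and 7.02% of all tested genes below it. The knockout and control values of 0 of 7 were free of overlap, against 4.93% of genes with 9 libraries and 7.02% with 8. With all libraries 7 of 7 log2 differences (knockout minus control, of log2(TPM + 1) values) were positive and their median was 0.67, but so were 86.7% of all tested genes, whose median was 0.46. After median-of-ratios scaling, which moved that median to 0.016, 5 of these differences were positive, from 0.039 for Cd200r1 to 0.48 for Pdcd1, and those of Ctla4 and Cd200 were -0.21 and -0.32. Without control replicate 1, 3 were positive and 4 negative, 47.5% of all tested genes were positive, and the medians were -0.15 for the receptors and -0.014 for all tested genes.

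PD-1 and TIGIT, the receptors with inhibitory tyrosine motifs, had the most similar pattern over libraries. Pdcd1 (chromosome 1, 94038305 to 94052553, GRCm38, minus strand) measured 81.6, 68.9, 41.9 and 68.5 TPM in the knockout libraries, listed by replicate number as in all that follow. The 5 controls measured 3.97, 42.8, 42.1, 43.2 and 72.2 TPM. Knockout replicates 1, 2 and 4 and control replicate 5 were high, and knockout replicate 3 lay level with control replicates 2 to 4. The log2 difference was 1.04 (standard error 0.71, limma adjusted p 0.745) over the 9 libraries. It was 0.37 (standard error 0.24, limma adjusted p 0.572) without control replicate 1, with a 95% interval of -0.16 to 0.91.

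Tigit (chromosome 16, 43648867 to 43664146, minus strand) measured 232.6, 190.3, 149.8 and 193.7 TPM in the knockout libraries. The controls measured 13.0, 153.0, 139.9, 153.4 and 256.6 TPM. The highest library was thus a control, and the groups overlapped. Without control replicate 1 the means were 191.6 ± 33.8 and 175.7 ± 54.3 TPM (SD, n = 4 each), a log2 difference of 0.15 with a 95% interval of -0.31 to 0.61 and a limma adjusted p of 0.83. With all libraries the difference was 0.87 with an adjusted p of 0.745.

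Among the 21 pairs that the 7 genes form, Pdcd1 and Tigit lay closest, with a root mean square distance of 0.155 log2 units between their centred profiles over the 8 libraries. The median distance of 5500 genes searched was 0.533 from Pdcd1 and 0.474 from Tigit. The genes nearest to Pdcd1 were Rangrf (0.134), Tigit and Trmt44 (0.166), and those nearest to Tigit were Pdss1 (0.126), Polq (0.135) and Trmt44 (0.154). Because their profiles lay closest, the promoter sequences of Pdcd1 and Tigit are shown, from RefSeq (GRCm38.p6), 250 bases before to 50 after the transcription start, read 5′ to 3′ on the strand of the gene. Capitals mark the core GGAAA of NFAT sites, a factor of T cell receptor signalling, or its complement TTTCC.
Pdcd1, chr1:94052504-94052803, minus strand: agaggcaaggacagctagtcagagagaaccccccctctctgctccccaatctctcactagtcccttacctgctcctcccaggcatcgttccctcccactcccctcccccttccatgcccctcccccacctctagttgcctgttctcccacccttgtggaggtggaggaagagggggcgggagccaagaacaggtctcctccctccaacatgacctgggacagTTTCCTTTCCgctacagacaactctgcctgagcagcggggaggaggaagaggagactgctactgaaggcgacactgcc
Tigit, chr16:43664135-43664434, minus strand: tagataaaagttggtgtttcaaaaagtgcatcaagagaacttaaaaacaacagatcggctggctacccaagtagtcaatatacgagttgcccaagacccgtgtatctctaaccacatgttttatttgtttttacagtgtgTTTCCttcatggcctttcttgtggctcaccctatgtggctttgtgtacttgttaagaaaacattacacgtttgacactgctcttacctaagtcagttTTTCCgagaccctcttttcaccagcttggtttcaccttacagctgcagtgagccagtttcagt
Each window holds 2 such cores, which stand side by side in Pdcd1. The core is common, present on either strand in 61.5% of 32544 promoter windows of the same length. The AP-1 site TGANTCA, present in 7.79% of windows, was found in neither. Also found in neither were the NR4A site AAGGTCA (4.71% of windows) and the GAS element TTCNNNGAA (8.33%). Other motifs searched differed: Tigit held 1 RUNX site (TGTGGT, 16.7% of windows) and 1 E-box (CAGCTG, 16.4%), and Pdcd1 held 0 of each. Of the 5 receptor genes with a promoter in the table, Ctla4 held 1 core and Havcr2 and Cd200 held 0. Lag3 and Cd200r1 had no entry.

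LAG-3 varied more between libraries of the same group than between the groups. Lag3 (chromosome 6, 124904361 to 124911705, minus strand) measured 88.0, 90.2, 95.1 and 149.4 TPM in the knockout libraries. The controls had 5.70, 95.5, 134.8, 64.2 and 209.4 TPM. Control replicates 3 and 5 and knockout replicate 4 were high, and the knockout libraries lay inside the range of the controls. Leaving out control replicate 1 gave a log2 difference of -0.15 with a 95% interval of -0.92 to 0.61 and a limma adjusted p of 0.913. With all libraries the sign was opposite, 0.67 with an adjusted p of 0.745.

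CD200 transcripts were the least abundant of the 7. Cd200 (chromosome 16, 45382135 to 45409053, minus strand) measured 6.87, 5.88, 7.11 and 9.02 TPM in the knockout libraries and 1.17, 7.14, 13.3, 3.78 and 17.4 TPM in the controls. Control replicates 3 and 5 were the highest and control replicates 1 and 4 the lowest, while the knockout libraries lay between. The log2 difference was 0.14 with all libraries and -0.30 without control replicate 1 (limma adjusted p 0.891 and 0.818).

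The CD200 receptor was, like its ligand, highest in control replicates 5 and 3. Cd200r1 (chromosome 16, 44765736 to 44794978, plus strand) measured 29.6, 37.9, 43.5 and 52.2 TPM in the knockout libraries and 1.16, 37.8, 58.8, 43.4 and 88.8 TPM in the controls. The knockout mean was 40.8 ± 9.50 TPM and that of control replicates 2 to 5 was 57.2 ± 22.8 TPM (SD, n = 4 each). That log2 difference, -0.43 with a 95% interval of -1.04 to 0.18, was the most negative of the 7, with a limma adjusted p of 0.569. With all libraries it was 0.51 with an adjusted p of 0.768.

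Lag3, Cd200 and Cd200r1 were all highest in control replicate 5, as were Tigit and Havcr2. The distance between centred profiles was 0.188 log2 units for Lag3 and Cd200, 0.284 for Lag3 and Cd200r1 and 0.357 for Cd200 and Cd200r1, against a median of 0.604 between Lag3 and all genes searched. Genes nearest to Lag3 were Vipr2 (0.166), a receptor for vasoactive intestinal peptide, Cd200 and Tox (0.192), a nuclear factor of chronically stimulated T cells. Prf1, perforin of cytotoxic granules, was second nearest to Cd200 (0.196), and Pms1 (0.168) nearest to Cd200r1. Tox reached 31.7 and 39.8 TPM in control replicates 3 and 5. It was 5.71 TPM in control replicate 1 and between 12.9 and 24.0 TPM elsewhere. Among the controls the targeted gene Cd160 was likewise highest in replicates 3 and 5, at 212.4 and 151.2 TPM, against 31.8 to 65.9 TPM in the others. Cd8a, a marker of CD8 T cells, was also highest in control replicates 3 and 5, at 81.2 and 86.1 TPM, against 3.06 to 23.9 TPM in the other libraries. The other CD8 chain, Cd8b1, did not share this, at 4.42 and 1.31 TPM there and 1.11 to 9.88 TPM elsewhere. The summed NK and innate lymphoid markers were 80.2 TPM in control replicate 3, 34.5, 42.9 and 38.7 TPM in control replicates 2, 4 and 5, and 3.17 TPM in control replicate 1, against 28.04 to 42.4 TPM in knockout libraries. The part of these cells in the receptor values was not tested.

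**Figure D2:**
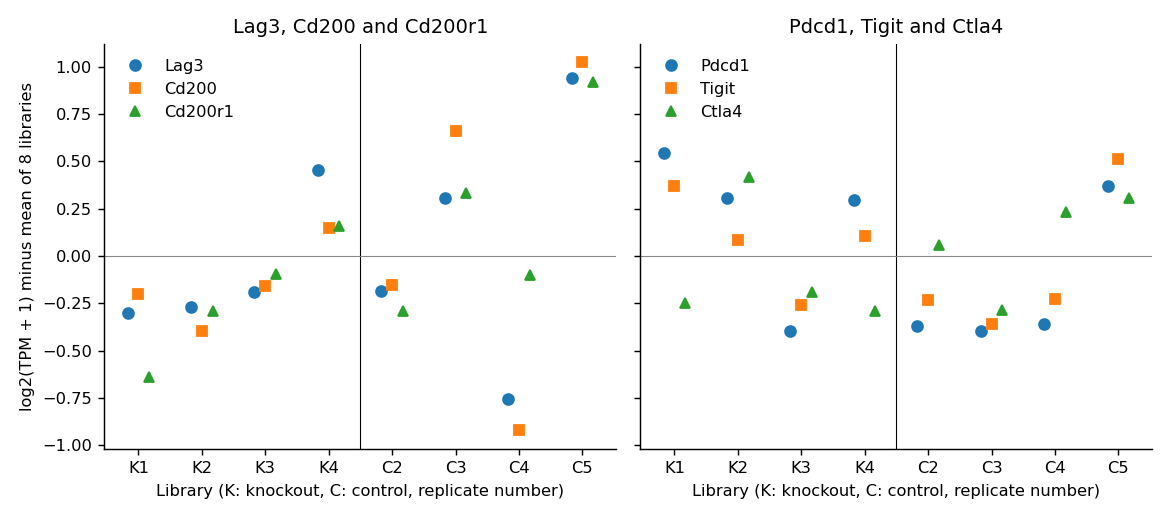
Centred log2(TPM + 1) of 3 receptor genes per panel in the 8 libraries without control replicate 1, knockout left and control right of the vertical line. Lag3, Cd200 and Cd200r1 are all highest in control replicate 5, as is Tigit. Pdcd1 and Tigit are close to each other in each library. Ctla4 lies below them in knockout replicates 1 and 4 and control replicate 5, and above them in the other libraries of both groups.

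TIM-3 was even across the knockout libraries. Havcr2 (chromosome 11, 46454935 to 46481255, plus strand) measured 20.8, 21.7, 25.5 and 23.1 TPM in the knockout libraries and 2.21, 17.2, 16.0, 10.3 and 32.0 TPM in the controls. All 4 knockout libraries lay above 4 of the 5 controls and below control replicate 5. The log2 difference was 0.87 with all libraries and 0.36 without control replicate 1 (standard errors 0.61 and 0.28, limma adjusted p 0.745 and 0.65). Macrophages and dendritic cells also express Havcr2. In a further fit control replicate 1 was left out and the mean of the 10 macrophage markers entered as a covariate. The difference of Havcr2 was then 0.62, and those of Pdcd1, Tigit, Lag3 and Cd200 were 0.84, 0.52, 0.20 and 0.26. Those of Ctla4 and Cd200r1 were -0.14 and -0.24, and the lowest limma adjusted p of the 7 was 0.356. The covariate moved the median difference of all tested genes from -0.014 to 0.082. Without control replicate 1 all 10 markers were higher in the knockout, so the covariate partly follows the group and the fit cannot fully separate them. The profiles nearest to Havcr2 were those of Sult2b1 (0.204), Cd27 (0.231), a costimulatory receptor of lymphocytes, and Chek2 (0.234).

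CTLA-4 had the smallest spread of the 7 over the 8 libraries. Ctla4 (chromosome 1, 60887000 to 60915832, plus strand) measured 84.5, 135.0, 88.2 and 82.1 TPM in the knockout libraries. The controls had 15.5, 104.7, 82.5, 118.3 and 124.7 TPM. Knockout replicate 2 was the highest library and the other 3 knockout libraries were level with control replicate 3. Leaving out control replicate 1 gave a log2 difference of -0.16 with a 95% interval of -0.58 to 0.27 (limma adjusted p 0.803), and with all libraries 0.38 (0.749). Regulatory T cells express much CTLA-4, and their defining factor Foxp3 averaged 11.0 ± 3.84 TPM among knockout libraries and 10.8 ± 2.37 TPM in control replicates 2 to 5 (SD, n = 4 each). Of 5 tested regulatory T cell markers, 3 had positive and 2 negative log2 differences without control replicate 1, with a median of 0.073. The 6 listed markers summed to 249.6 to 336.0 TPM in knockout libraries, 105.5 TPM in control replicate 1 and 230.8 to 376.0 TPM in the other controls. The profiles nearest to Ctla4 were those of Tyro3 (0.127), Nsg2 (0.129) and Cd69 (0.158), the last an early activation antigen.

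All 7 receptor genes varied more between libraries than the median gene. The SD of log2(TPM + 1) over the 8 libraries was 0.29 for Ctla4, 0.32 for Tigit, 0.41 for Pdcd1, 0.47 for both Havcr2 and Cd200r1, 0.53 for Lag3 and 0.61 for Cd200. The median of 6672 genes at a mean of 10 TPM or more was 0.21.

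**Figure D3:**
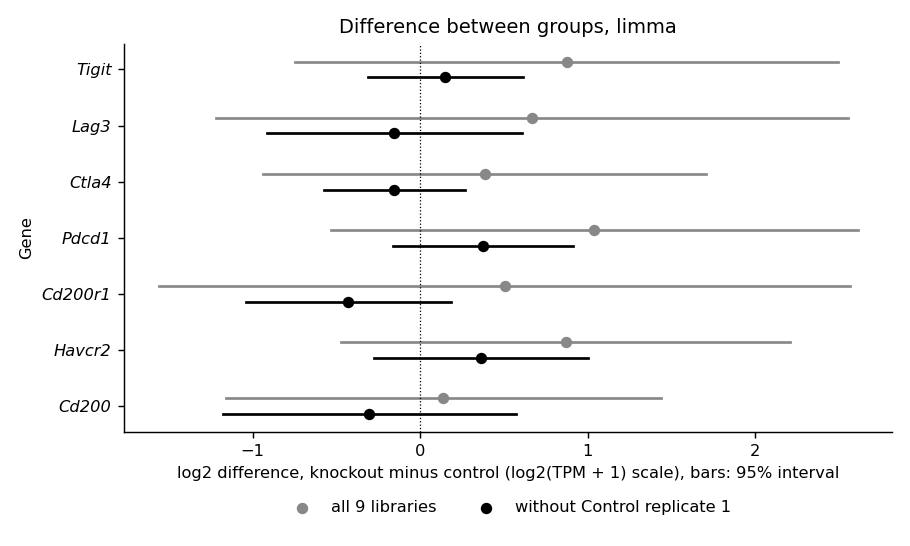
Log2 difference between knockout and control libraries for each receptor gene from limma, as points with 95% intervals, for all 9 libraries (grey) and without control replicate 1 (black). All 14 intervals include 0, and all 7 grey points lie right of their black points.

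Control replicate 1 was lower than the other controls for each receptor gene. For 5 of the 7 the fall was larger than the median of their length class, which by definition as many genes exceed as do not. On the log2(TPM + 1) scale it lay below the mean of control replicates 2 to 5, with differences of -4.67 for Cd200r1, -4.11 for Lag3, -3.62 for Tigit, -3.32 for Pdcd1, -2.70 for Ctla4, -2.52 for Havcr2 and -2.21 for Cd200. Over all 11495 tested genes the median was -2.06. Among genes at 10 TPM or more in the other controls, the median was -0.35 for 551 genes with a longest transcript under 1000 bp, -2.41 for 1315 genes of 1000 to 2000 bp, -3.01 for 1536 genes of 2000 to 3000 bp and -2.95 for 2995 longer ones. Tigit, with a longest transcript of 919 bp, was far below the median of its length class. It lay close to the 1000 bp edge of the next class, whose median of -2.41 was nearer to its value. Only 1.11% of tested genes had a more negative difference than Cd200r1. Havcr2 and Cd200 were above the median of theirs, but at 2.21 and 1.17 TPM in control replicate 1 the added 1 shrinks their fall. As ratios of TPM, the mean of the other controls over control replicate 1 was 8.53 for Havcr2, 8.89 for Cd200 and 6.93 for Ctla4.

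**Figure D4:**
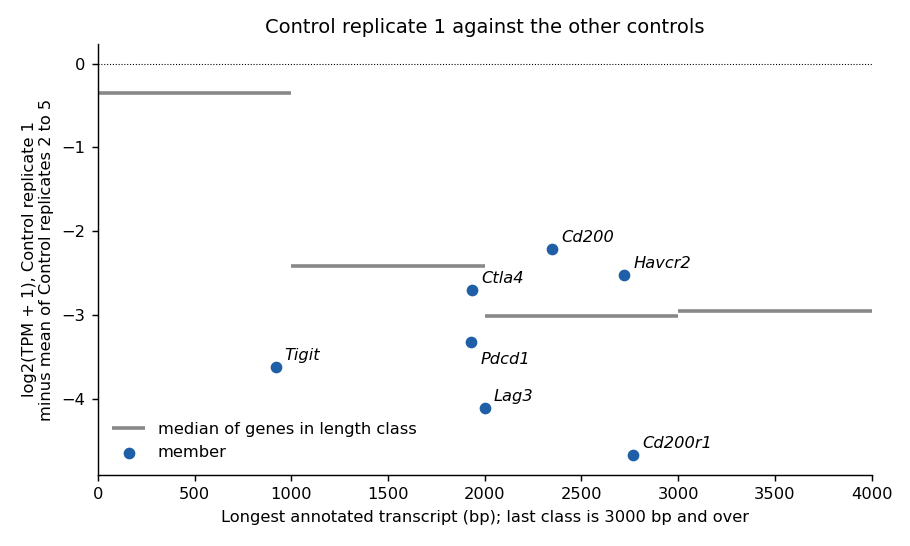
Difference in log2(TPM + 1) between control replicate 1 and the mean of control replicates 2 to 5, against the longest annotated transcript, for the 7 receptor genes (points) and as the median of genes at 10 TPM or more in 4 length classes (grey lines). Tigit lies at -3.62 beside a class median of -0.35, close to the edge of the next class with a median of -2.41.

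Ratios of a receptor to a partner gene in the same library were compared for 4 pairs, as differences of log2(TPM + 1) with exact two-sided permutation tests. TIGIT and the activating receptor CD226 compete for CD155. Tigit minus Cd226 was 1.49, 0.84, 0.74 and 1.13 in the knockout libraries and 0.26, 1.02, -0.23, 0.56 and 0.70 in the controls. Every knockout library was above every control except control replicate 2. The means differed by 0.59 (exact p = 0.0714, adjusted over the 4 pairs 0.286) with all libraries and by 0.54 without control replicate 1 (exact p = 0.114, adjusted 0.457). Cd226 itself averaged 91.2 ± 10.2 TPM among knockout libraries and 125.0 ± 42.9 TPM in control replicates 2 to 5 (SD, n = 4 each).

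Without control replicate 1 the remaining pairs differed by less. Ctla4 minus Cd28, competitors for CD80 and CD86, averaged -0.46 ± 0.39 in knockout and -0.29 ± 0.44 in control replicates 2 to 5 (SD, n = 4 each, exact permutation p = 0.686). Lag3 minus Cd4, both MHC class II binders, averaged -1.94 ± 0.46 and -1.97 ± 0.65 (exact permutation p = 0.943, n = 4 each), and Cd200r1 minus its ligand Cd200 averaged 2.33 ± 0.25 and 2.46 ± 0.52 (exact permutation p = 0.829, n = 4 each). In control replicate 1 these values were 0.90, -5.64 and -0.01, outside the range of the other 8 libraries in each case. Cd4 itself, at 333.6 TPM there, was within the range of the other libraries. With all 9 libraries the means differed by -0.41, 0.77 and 0.37, with exact permutation p values of 0.341, 0.556 and 0.683 before adjustment. Groups of 4 and 4 libraries cannot give an exact p below 0.0286.

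**Figure D5:**
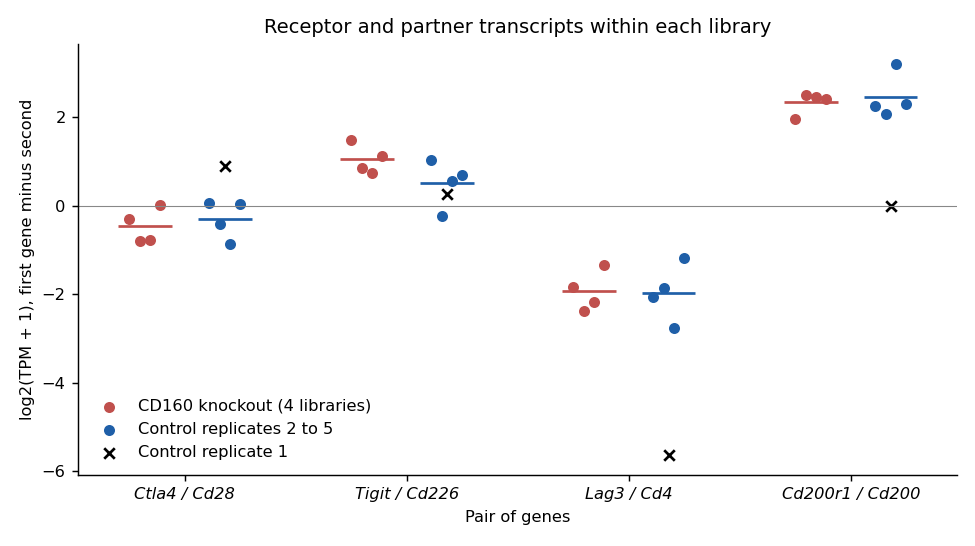
Difference in log2(TPM + 1) between a receptor and its partner gene in each library, for 4 pairs, with bars for the mean of the knockout libraries and of control replicates 2 to 5 and a cross for control replicate 1. Tigit against Cd226 is the pair with the widest gap between the means without control replicate 1, 1.05 against 0.51, with overlapping points.

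Genes that act with the receptors were taken from 6 lists: ligands, other inhibitory receptors, activating partners, inhibitory signalling, transcription factors and CTLA-4 trafficking. Of their 83 genes 79 were tested in limma, and 0 passed the adjusted threshold with or without control replicate 1, with 8 and 16 at an unadjusted p under 0.05, a threshold passed by 6.39% and 12.8% of all tested genes. Without that library the groups were free of overlap for 7 genes, 4 higher and 3 lower in the knockout, against 4.01% and 3.01% of all tested genes, and the median log2 difference was 0.017. With all libraries these counts were 4 and 0, against 3.88% and 1.05%, and 73 of 79 differences were positive.

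Among 13 tested ligand genes, 9 had positive and 4 negative differences without control replicate 1, with a median of 0.41. Nectin2, a ligand of TIGIT and CD226, averaged 4.76 ± 1.56 TPM among knockout libraries and 1.45 ± 0.37 TPM among control replicates 2 to 5 (SD, n = 4 each), with a log2 difference of 1.2 and a limma adjusted p of 0.117. Cd274, which encodes the PD-1 ligand PD-L1, averaged 32.6 ± 3.89 against 24.4 ± 3.18 TPM, with 0.41 and 0.235. The MHC class II genes H2-Aa, H2-Eb1 and H2-Ab1, whose products bind LAG-3, had log2 differences of 1.24, 1.16 and 1.23 with limma adjusted p values of 0.282, 0.306 and 0.277. The 10 macrophage markers had 10 of 10 positive differences with a median of 1.34 in the same fit. Positive there were also 5 of 5 tested endothelial and stromal markers (median 0.93), 5 of 6 dendritic cell markers (0.52) and 4 of 5 colon epithelium markers (0.70). The part of these cells in the ligand values was not tested. Fgl1 and Clec4g, further ligands of LAG-3, were listed at 0 in all 9 libraries.

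Of the 14 other inhibitory receptors 7 had positive and 7 negative differences without control replicate 1. Pilra, Lair1, Cd300a and Lilrb4a, receptors that myeloid cells express, had 1.21, 0.77, 0.75 and 0.63, with limma adjusted p values of 0.229 to 0.359. Cd96, a further receptor for CD155, was singled out after its values were seen. It measured 157.3, 162.6, 127.9 and 138.6 TPM in the knockout libraries and 18.6, 200.7, 261.9, 192.4 and 220.9 TPM in the controls. Without control replicate 1 every knockout library was below every control, with a log2 difference of -0.57, a standard error of 0.12 and a limma adjusted p of 0.123, while with all libraries the difference was 0.12. The 8 T cell markers were lower as well in that fit, 8 of 8 negative with a median of -0.20, and summed to 3865 to 4897 TPM in knockout libraries and 4756 to 5343 TPM in control replicates 2 to 5. Their part in the difference of Cd96 was not tested.

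Of the 17 inhibitory signalling genes 10 had positive and 7 negative differences without control replicate 1. Ubash3b, whose product limits T cell receptor signalling, averaged 3.48 ± 1.17 TPM among knockout libraries and 6.38 ± 1.33 TPM among control replicates 2 to 5 (SD, n = 4 each), without overlap, with a log2 difference of -0.74 and a limma adjusted p of 0.201. Ptpn6, the phosphatase SHP-1, had a log2 difference of 0.22 (limma adjusted p 0.329), Ptpn11, the phosphatase SHP-2, 0.27, and Inpp5d, the lipid phosphatase SHIP-1, 0.20. Of 19 tested transcription factors 9 were positive and 10 negative. Nr4a3, a factor induced by T cell receptor signals, averaged 4.29 ± 0.34 TPM among knockout libraries and 7.76 ± 2.50 TPM among control replicates 2 to 5 (SD, n = 4 each), without overlap, with a log2 difference of -0.68 and a limma adjusted p of 0.229. Nr4a2, of the same family, had a difference of -0.61 with a limma adjusted p of 0.635, and Tcf7, a factor of naive and memory-like T cells, had 0.017. Of 12 trafficking genes 7 were positive and 5 negative, with Pld2, a phospholipase, at 0.49 and Rab7, a GTPase of late endosomes, at 0.14, both without overlap and with limma adjusted p values of 0.213 and 0.43. The activating receptors Cd28 and Icos differed by 0.012 and 0.15, with adjusted p values of 0.994 and 0.878.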

How the data were processed

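RNA of sorted colonic CD4+ T cells was sequenced as SMART-Seq2 libraries from polyadenylated RNA with paired reads of 38 cycles, per the labels' protocols. The authors deposited 1 table of TPM values. Trimmomatic 0.32, Bowtie2 2.2.9, RSEM 1.2.31 and the build GRCm38 are named in the submitters' processing notes, and their settings are not given in the sources used here. TPM keeps no depth, so the counting error behind a value is unknown. Groups and replicate numbers follow the sample titles.

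All tested genes were fitted with limma 3.58.1 in R 4.3.3 (eBayes with trend) on log2(TPM + 1), with Benjamini-Hochberg adjustment over all of them and a threshold of 0.05. This scale understates changes of low values. The fit was tested on simulated data. Exact two-sided permutation tests ran over libraries. Loci come from GENCODE M21 (GRCm38), which held all 7 genes. Figures were drawn with matplotlib 3.10.9.

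The members and lists were chosen with earlier results of these data known. Named were the 7 genes, the 4 genes of each pathway list with the smallest unadjusted p in the fit of all 9 libraries, the partners Cd28, Icos, Cd226 and Cd4, up to 3 abundant markers per cell type, and the 3 genes with the closest profile to each receptor (tested genes with an SD of at least 0.25, without predicted genes), of which a part is printed. Cd274, Cd96, Ubash3b, Nr4a2, Tox, Prf1 and the genes listed at 0 were added after their values were seen. Alternatives were pseudocounts of 0.1 and 5, other filters, median-of-ratios scaling, exact tests, the replicate block, a macrophage covariate and leaving out each library.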

Additional observations from a re-analysis of the deposited data

Results flagged for a closer look

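Within groups of 4 or 5 libraries, 22 sets of values were searched for a library whose gap to its nearest neighbour took up more of the range than Dixon's critical value (0.829 for 4 libraries and 0.71 for 5), which chance exceeds in about 1 of 20 sets. There were 7 such sets, and 4 of them concerned control replicate 1 as the low library, for Pdcd1 (0.803 of the range), Tigit (0.793), Ctla4 (0.799) and Cd200r1 (0.775). For Lag3, Havcr2 and Cd200 it was also the lowest control, without passing that value. Among knockout libraries, replicate 4 was high for Lag3 (0.854), at 7.23 against 6.59 for the next library on the log2(TPM + 1) scale. Replicate 2 was high for Ctla4 (0.856), at 7.09 against 6.48. Replicate 1 was low for the difference of Cd200r1 and Cd200 (0.83), at 1.96 against 2.41.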

How the results depend on the processing

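The count of receptor genes past the adjusted threshold was 0 in every alternative run, with limma or the exact test, and in each of the 9 fits that left out a library, where it ranged from 0 to 0. The log2 differences of Pdcd1, Tigit and Havcr2 stayed positive in all of them, from 0.37 to 1.34, 0.15 to 1.2 and 0.36 to 1.2 when each library was left out. The ranges for the others were -0.15 to 1.09 for Lag3, -0.16 to 0.58 for Ctla4, -0.30 to 0.47 for Cd200 and -0.43 to 0.92 for Cd200r1. Their negative values came without control replicate 1, and for Cd200 also without control replicate 4 (-0.02). Median-of-ratios scaling of all libraries gave -0.21 for Ctla4, -0.32 for Cd200, 0.48 for Pdcd1, 0.28 for Tigit, 0.34 for Havcr2, 0.096 for Lag3 and 0.039 for Cd200r1, and moved the median of all genes from 0.46 to 0.016. A pseudocount of 5 gave -0.0028 for Cd200. Without control replicate 1, that scaling gave -0.15 for Lag3, -0.15 for Ctla4, -0.30 for Cd200 and -0.43 for Cd200r1, the exact test left the differences at -0.15, -0.16, -0.30 and -0.43, and the macrophage covariate gave -0.14 for Ctla4 and -0.24 for Cd200r1. The cause was not tested.

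Deviations from the group mean were not positively correlated between libraries with the same replicate number (r across genes of -0.017, -0.093, -0.137 and -0.089). The control mean included control replicate 1, so these values do not settle whether the numbers mark a pairing, which the labels do not state. With the replicate block, 0 receptor genes passed, the differences lay between 0.47 for Cd200 and 1.34 for Pdcd1, and without control replicate 1 they were -0.022 for Ctla4, -0.055 for Cd200r1, 0.21 for Lag3, 0.0027 for Cd200, 0.44 for Pdcd1, 0.25 for Tigit and 0.69 for Havcr2. Without control replicate 1, knockout replicate 1 and control replicate 5 had no partner. The block then gave the differences of replicates 2 to 4 of each group alone. Lag3 and Cd200 turned from -0.15 and -0.30 with that loss of libraries. Control replicate 5 has no partner, so with all libraries the block gave the same differences as leaving it out, and the count of genes called over the whole table, 2 without the block, was 0 in both.

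Leaving out each library gave ranges of -0.61 to -0.17 for Ctla4 against Cd28, 0.42 to 0.73 for Tigit against Cd226, 0.036 to 1.15 for Lag3 against Cd4 and -0.13 to 0.68 for Cd200r1 against Cd200, the last negative only without control replicate 1 (-0.125). With the block over pairs these 4 differences were -0.38, 0.65, 1.15 and 0.45, where the smallest possible p is 0.125.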
